A study of Mus musculus with 16 samples.

Results

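The genes Mdm2, Cdkn1a and Apaf1, 3 targets of the transcription factor p53, were followed across 16 two-colour cDNA arrays of azacytidine-treated mouse fibroblasts. They were found by gene symbol: 4 probes carried 1 of these 3 symbols and no other, out of 9930 genes named on the array. Mdm2 (Entrez Gene 17246) had probes 9852 and 14270, Cdkn1a (12575) had probe 2652 and Apaf1 (11783) had probe 20207. The 3 genes were picked with their array values and group means known, so those values are given below as a description and without a test.

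The study treated NIH3T3 cells, a mouse fibroblast line in long use, with azacytidine, a cytidine analogue and inhibitor of DNA methylation. On each array treated cells of a line were compared with untreated ones. There were 8 arrays of Erbb2-transfected cells at 10 µM, 4 of Erbb2-transfected cells at 5 µM and 4 of untransfected NIH3T3 at 10 µM. The untreated channel held Erbb2-transfected cells for the first 2 groups and untransfected cells for the other one, so the transgene was on both sides of the ratio in the transfected line. Erbb2 is a receptor tyrosine kinase and oncogene. The labels give neither the promoter of the transgene, nor the length of treatment, nor whether the transfected line was 1 clone, nor whether each array had a culture of its own, so the spread between arrays may be technical. A ratio holds no level, so the cell type could not be checked against its markers.

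p53 is a transcription factor that is held at low levels in unstressed cells and accumulates after DNA damage and other stress. Mdm2 is the ubiquitin ligase that marks p53 for degradation and is itself switched on by p53, which closes a feedback loop. Cdkn1a encodes p21, an inhibitor of cyclin-dependent kinases through which p53 stops the cell cycle. Apaf1 is the scaffold that binds cytochrome c and assembles into the apoptosome, the platform on which the initiator caspase of the mitochondrial death pathway is activated. Methylation of CpG dinucleotides in promoters, which azacytidine lowers, is known to go with silencing, and silencing of APAF1 by methylation is known from human melanoma.

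The 250 bases before the annotated starts of the 3 genes are shown because this CpG content is what the drug's known action bears on. No methylation was measured here, and where the probes lie in these genes was not analysed here. The sequences and coordinates are from RefSeq on GRCm38.p6, each read 5′ to 3′ on the strand of the gene, and all 3 genes matched by symbol. Capitals mark CpG dinucleotides in the first 3 sequences. In the fourth they mark a match to CATGNNNNNNCATG, a form of the paired core of the p53 response element, which reads the same on both strands. Other forms of the core, and pairs at another spacing, were not searched.
Apaf1, chr10:91082744-91082993, minus strand: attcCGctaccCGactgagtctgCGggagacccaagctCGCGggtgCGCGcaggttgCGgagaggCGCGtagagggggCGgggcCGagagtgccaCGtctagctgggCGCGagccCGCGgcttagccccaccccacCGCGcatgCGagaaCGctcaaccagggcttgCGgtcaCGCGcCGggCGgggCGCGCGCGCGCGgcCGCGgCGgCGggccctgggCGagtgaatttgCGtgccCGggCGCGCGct
Mdm2, chr10:117710759-117711008, minus strand: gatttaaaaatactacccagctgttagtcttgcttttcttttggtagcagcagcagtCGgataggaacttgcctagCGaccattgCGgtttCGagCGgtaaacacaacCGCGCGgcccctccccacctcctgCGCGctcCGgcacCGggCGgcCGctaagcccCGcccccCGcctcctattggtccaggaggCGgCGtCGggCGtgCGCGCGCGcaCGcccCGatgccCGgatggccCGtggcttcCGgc
Cdkn1a, chr17:29093519-29093768, plus strand: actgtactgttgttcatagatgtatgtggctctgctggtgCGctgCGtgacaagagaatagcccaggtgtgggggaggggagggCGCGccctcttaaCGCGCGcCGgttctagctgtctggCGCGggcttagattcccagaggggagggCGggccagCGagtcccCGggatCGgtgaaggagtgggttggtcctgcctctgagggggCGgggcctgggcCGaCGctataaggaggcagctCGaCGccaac
Cdkn1a, second annotated start, chr17:29090729-29090978, plus strand: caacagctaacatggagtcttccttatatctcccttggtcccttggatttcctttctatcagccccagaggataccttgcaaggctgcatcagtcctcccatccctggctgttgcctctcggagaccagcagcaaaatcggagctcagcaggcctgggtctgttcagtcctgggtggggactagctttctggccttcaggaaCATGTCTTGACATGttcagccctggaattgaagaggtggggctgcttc

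The Apaf1 window held 42 CpG dinucleotides, more than 99.1% of the 32851 promoter windows of the same length, whose median was 6. The Mdm2 window held 29, more than 93.2% of windows. The 2 Cdkn1a windows differed, with 19 CpG before the start at the CpG-rich window and 2 before the other start, more than 80.3% and 18.8% of windows. This form of the p53 motif was found in the CpG-poor Cdkn1a window, where its first base lay 48 bases before the start. It was in none of the other 3 windows. It occurred in 161 of all 32851 windows, or 0.49%. A match of letters is no measurement of binding. A window without one may still hold a p53 site of another form, and says nothing of p53 sites elsewhere in these genes.

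The values are log ratios of the 2 channels. The labels do not say which channel is on top, so the deposited numbers are given first. They were then read as Cy5 over Cy3 and expressed as log2 of treated over untreated cells, by changing the sign of the arrays whose treated RNA was labelled Cy3. This reading is the likely one, not a stated one. Were the values Cy3 over Cy5, every sign below would turn. Were they treated over untreated already, the means of the deposited numbers, near 0 for Apaf1 and Mdm2, would be the response, and the means after the sign change would hold the difference between the dyes. The labels of each untransfected array name 1 dye for both channels. Should its treated RNA have carried the other dye, the signs of that group alone would turn.

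Across the 12420 features compared, 3.35% had 1 sign on every array with a value in Erbb2 cells at 10 µM, 18.5% with 5 µM and 25.5% in untransfected cells. Without the sign change these shares were 2.2%, 16.7% and 12%. Arrays gave between 16153 and 18507 ratios, and their interquartile range ran from 0.71 to 1.36, with the 3 largest ranges on arrays 3, 5 and 6 of the Erbb2 group at 10 µM. Arrays of a group correlated weakly. As deposited, pairs with the same dye label had a mean Pearson's r of 0.026 in Erbb2 cells at 10 µM. With 5 µM it was 0.052, and in untransfected cells 0.109. Pairs with opposite labels, which the sign change would set below 0, had 0.004, -0.003 and -0.053. The highest r of any 2 arrays was 0.117. The number of arrays and their weak correlation limit the precision.

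**Figure D1:**
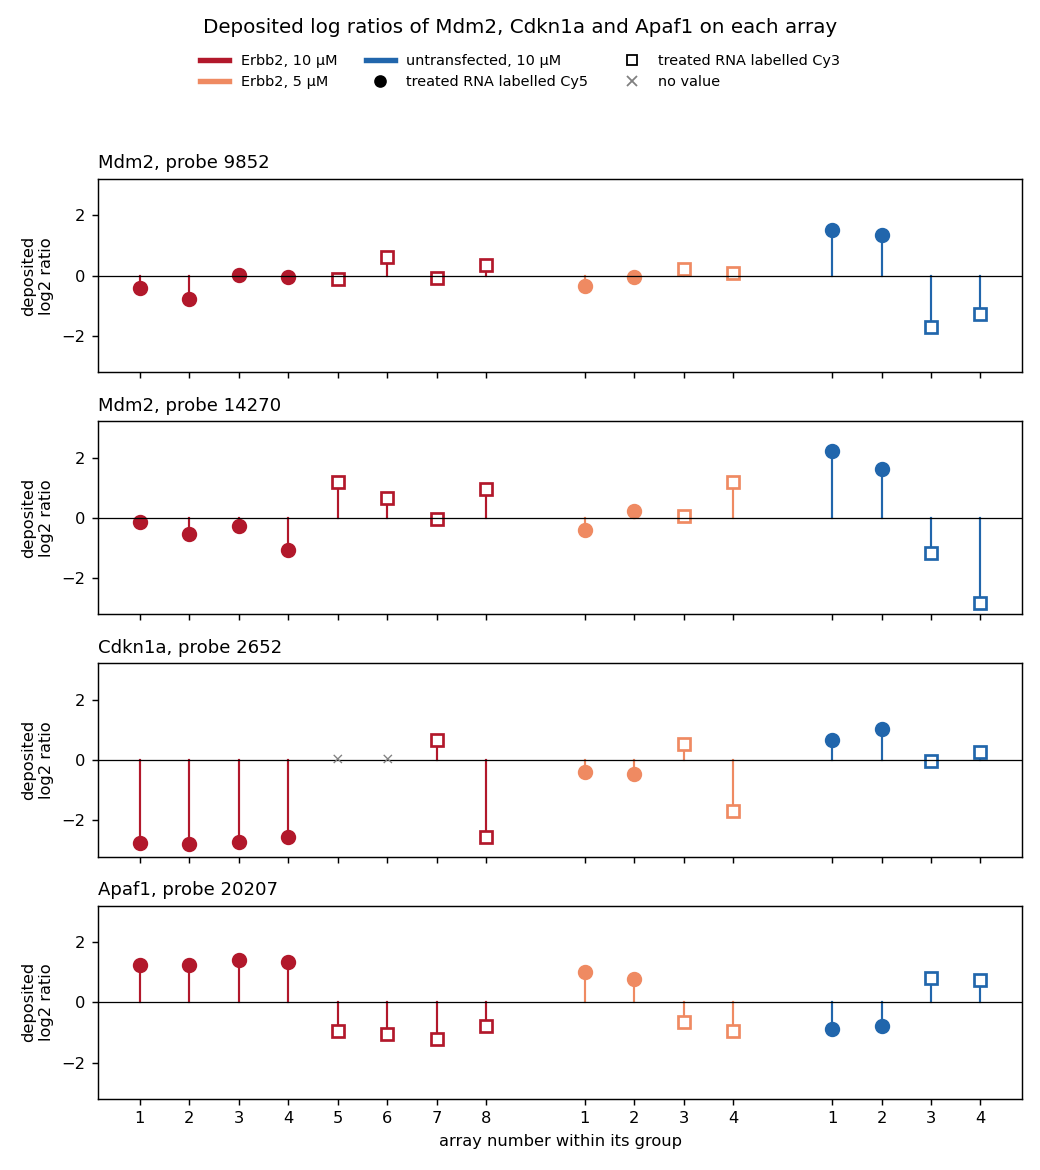
Deposited log2 ratio (vertical axis) of the 4 probes on each array (horizontal axis, array number within its group). Filled circles are arrays with the treated RNA labelled Cy5 and open squares arrays with it labelled Cy3. Apaf1 changes sign with the dye on all 16 arrays, from 0.64 to 1.397 in size, whereas Cdkn1a stays between -2.766 and -2.552 on 5 of 6 arrays of Erbb2 cells at 10 µM whatever the dye.

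Mdm2, the gene of the feedback loop, had low or near-zero ratios in Erbb2 cells and high ratios in untransfected cells. Probe 9852 was deposited between -0.759 and 0.627 on the 8 Erbb2 arrays at 10 µM and between -0.347 and 0.23 on the 4 at 5 µM, and probe 14270 between -1.062 and 1.192 and between -0.395 and 1.181. Probe 9852 was deposited at 1.505 and 1.342 on the untransfected arrays with the treated RNA in Cy5, and at -1.711 and -1.272 on those with it in Cy3. Probe 14270 had 2.204 and 1.622, and -1.162 and -2.811, on the same arrays. Both probes therefore changed sign with the dye on every untransfected array.

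Expressed as treated over untreated and averaged over both probes, Mdm2 had a median of -0.55 in Erbb2 cells at 10 µM, with a lowest value of -0.66 and a highest of 0.05. At 5 µM the 4 arrays gave -0.37, 0.09, -0.14 and -0.64. In untransfected cells they gave 1.85, 1.48, 1.44 and 2.04. Every Erbb2 array lay below every untransfected array, and the 2 doses overlapped. Array values of Erbb2 cells at 10 µM and untransfected cells did not overlap for 2.99% of all features, those of Erbb2 cells at 5 µM and untransfected cells for 9.39%, and those of the 2 doses for 0.644%. Since the genes were chosen on these contrasts, nothing is read from those shares.

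The mean log2 ratio of Mdm2 was -0.43 ± 0.27 (SD, n = 8) in Erbb2 cells at 10 µM, or 0.744-fold, and -0.27 ± 0.31 (n = 4) at 5 µM, or 0.831-fold. In untransfected cells it was 1.70 ± 0.29 (n = 4), or 3.26-fold. Of the 12420 features, 24.1% had a fitted value of greater size in Erbb2 cells at 10 µM, 42.7% in those at 5 µM and 1.25% in untransfected cells. For Cdkn1a these shares were 1.23%, 81.7% and 36.2%, and for Apaf1 1.71%, 7.58% and 10.8%. The genes were chosen on these values, so nothing is read from the shares. The Mdm2 means of the 2 Erbb2 groups lay within 1 SD of each other.

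The 2 Mdm2 probes had the same sign on 13 of 16 arrays. Their mean log2 ratios were -0.25 ± 0.33 for probe 9852 and -0.60 ± 0.45 for probe 14270 in Erbb2 cells at 10 µM (SD, n = 8). At 5 µM they were -0.18 ± 0.13 and -0.35 ± 0.61 (n = 4). In untransfected cells they were 1.46 ± 0.20 and 1.95 ± 0.72 (n = 4). Probe 14270 thus lay farther from 0 in each group and was the more variable of the pair. With the dyes taken apart, the untransfected mean over both probes was 1.67 on the Cy5 arrays and 1.74 on the Cy3 arrays.

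Cdkn1a, the arrest gene, had its largest ratios in Erbb2 cells at 10 µM, but the deposited sign was the same on the Cy5 arrays and on 1 of 2 Cy3 arrays. The deposited values were -2.744, -2.766, -2.706 and -2.552 on the 4 arrays with the treated RNA in Cy5. Of the 4 arrays with it in Cy3, arrays 5 and 6 had no value, array 7 had 0.674 and array 8 had -2.556. Arrays 5 and 6 were also among the 3 with the widest spread of ratios. The deposited number was therefore close to the same on 5 of 6 arrays, 4 of them having the treated RNA in Cy5 and the fifth in Cy3.

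Expressed as treated over untreated, Cdkn1a ran from -2.77 to 2.56 in Erbb2 cells at 10 µM, with a median of -2.63 and a mean of -1.48 ± 2.14 (SD, n = 6). The mean was -2.69 over the 4 arrays with the treated RNA in Cy5 and 0.94 over the 2 with it in Cy3. As deposited, with no sign changed, the mean was -2.11 ± 1.37. After the sign change the SD was 2.14, against a median SD of 0.76 over all features, and 95.9% of features had a lower one. The gene was chosen on its array values, so nothing is read from this share. The 2 dye arrangements gave means of opposite sign, so these arrays do not settle the direction of the Cdkn1a ratio at this dose.

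At 5 µM Cdkn1a was deposited at -0.38 and -0.475 on the Cy5 arrays, and at 0.542 and -1.688 on the Cy3 arrays. As treated over untreated these are -0.38, -0.475, -0.542 and 1.688, of which array 4 stood apart. The mean was 0.07 ± 1.08 (SD, n = 4), and -0.47 without array 4. In untransfected cells the deposited values were 0.653 and 1.036 in Cy5, and -0.033 and 0.255 in Cy3. The mean as treated over untreated was 0.37 ± 0.59 (SD, n = 4), with 3 of 4 arrays above 0. The groups overlapped, and the 3 means differed by less than the SD in Erbb2 cells at 10 µM.

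Apaf1, the scaffold of the apoptosome, had the most even values of the 3 genes. It was deposited at 1.235, 1.245, 1.397 and 1.339 on the Erbb2 arrays at 10 µM with the treated RNA in Cy5, and at -0.941, -1.069, -1.222 and -0.79 on those with it in Cy3. At 5 µM the values were 1.014 and 0.757 in Cy5, and -0.64 and -0.967 in Cy3. In untransfected cells the relation to the dye labels was the opposite one, with -0.872 and -0.781 in Cy5, and 0.808 and 0.741 in Cy3.

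As treated over untreated, Apaf1 had a mean log2 ratio of 1.15 ± 0.21 (SD, n = 8) in Erbb2 cells at 10 µM, or 2.23-fold. At 5 µM it was 0.84 ± 0.18 (n = 4), or 1.80-fold. In untransfected cells it was -0.80 ± 0.06 (n = 4), or 0.574-fold. All 12 Erbb2 arrays lay above 0 and all 4 untransfected arrays below it. The doses overlapped, since the lowest value at 10 µM was 0.79 and the highest at 5 µM was 1.014. The mean difference between Erbb2 and untransfected cells at 10 µM was 1.96.

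The spread of Apaf1 was narrow. Its SD was 0.21 in Erbb2 cells at 10 µM, where 2.77% of features had a lower one, 0.18 at 5 µM, where 10.2% did, and 0.06 in untransfected cells, where 0.781% did. For Mdm2 the shares of features with a lower SD were 7.19%, 29.5% and 29.4%. The genes were chosen on their array values, so nothing is read from these shares. With the dyes taken apart, the mean at 10 µM in Erbb2 cells was 1.30 with the treated RNA in Cy5 and 1.01 with it in Cy3. It was 0.89 and 0.80 at 5 µM, and -0.83 and -0.77 in untransfected cells. Were the dyes of the untransfected arrays the other way round, Apaf1 would have 0.80 there, with 1 sign in all 3 groups, and Mdm2 would have -1.70.

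**Figure D2:**
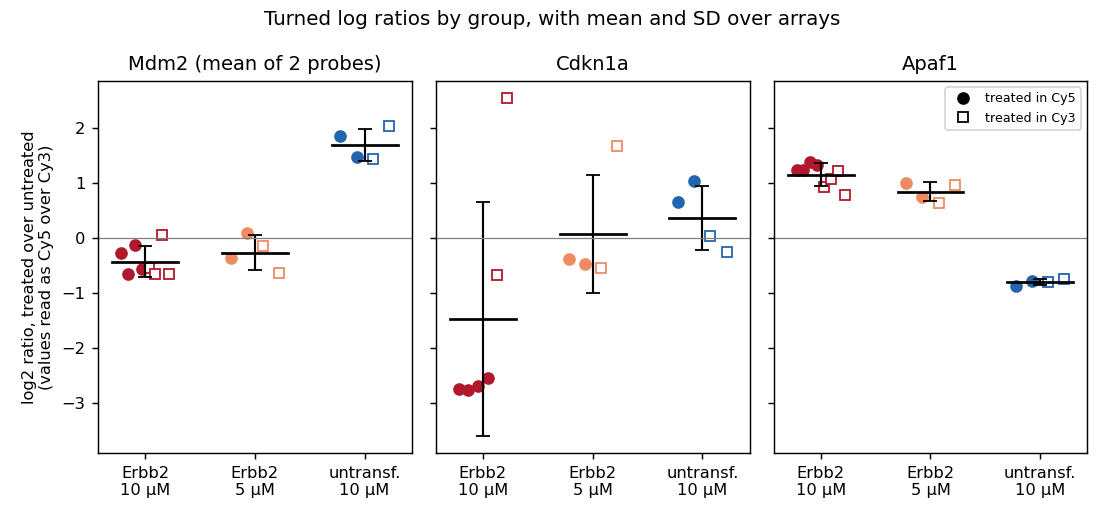
Log2 ratio of treated over untreated cells (vertical axis, deposited values read as Cy5 over Cy3) by group, with a point for each array, a bar for the mean and whiskers for the SD. Mdm2 averages -0.43 and -0.27 in Erbb2 cells and 1.70 in untransfected cells, Apaf1 averages 1.15 and 0.84 in Erbb2 cells and -0.80 in untransfected cells, and Cdkn1a spans -2.77 to 2.56 in Erbb2 cells at 10 µM.

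The group means of Mdm2 and Cdkn1a ran in the same order, and those of Apaf1 in the reverse order. For Cdkn1a the order rests on a mean whose direction at 10 µM in Erbb2 cells is not settled. From low to high, Mdm2 ran through Erbb2 cells at 10 µM and at 5 µM, which did not differ beyond their SD, to untransfected cells. From high to low, Apaf1 ran through Erbb2 cells at 10 µM and at 5 µM to untransfected cells, again with overlapping arrays between the doses. From low to high, Cdkn1a ran through Erbb2 cells at 10 µM and at 5 µM to untransfected cells, with every neighbour within the spread. Mdm2 and Apaf1 therefore lay on opposite sides of 0 in both lines. Over the 12 Erbb2 arrays alone, Pearson's r between them was -0.07, so the opposition lay between the lines and not among the transfected arrays. Between Cdkn1a and Apaf1 r was -0.70, and between Mdm2 and Cdkn1a -0.23, over the 10 Erbb2 arrays with both values. The untreated RNA of these arrays came from the same line and may come from shared cultures, so r is given as a description.

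**Figure D3:**
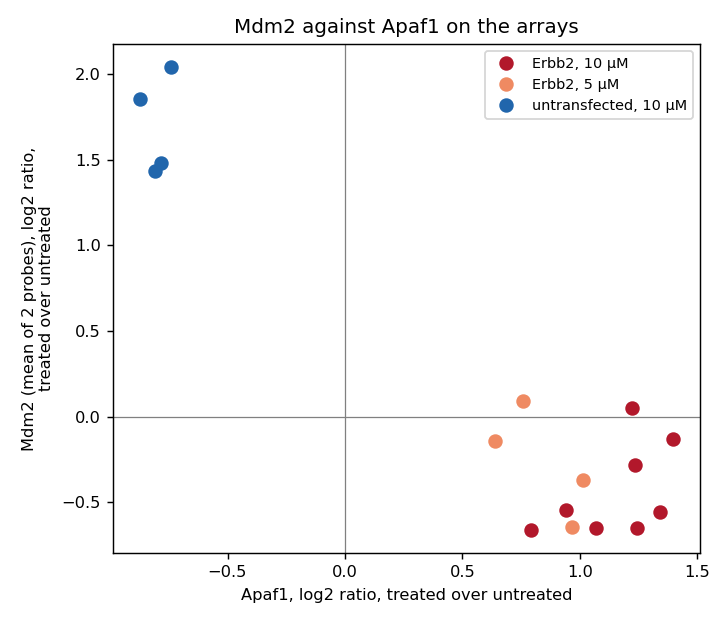
Log2 ratio of Mdm2 (vertical axis, mean of 2 probes) against Apaf1 (horizontal axis) on 16 arrays, both as treated over untreated. The 12 Erbb2 arrays have no clear slope (r = -0.07), and the 4 untransfected arrays form a group of their own, with Apaf1 from -0.87 to -0.74 and Mdm2 from 1.44 to 2.04.

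The genes most like each member were those with the highest Pearson's r over the arrays, as treated over untreated. For Mdm2 these were Egr1, an immediate early transcription factor (r = 0.93, 15 arrays), Slc15a5 (0.90), Ttll10 (0.89), Cks2, a cofactor of cyclin-dependent kinases (0.88), and Nfkbia, the inhibitor of NF-kappaB (0.88). Fitted log2 ratios of Egr1 were -0.75 in Erbb2 cells at 10 µM, -0.44 with 5 µM and 2.73 in untransfected cells. Over the Erbb2 arrays alone r was 0.51 for Egr1 and -0.04 for Nfkbia, lower than over all arrays. The least alike were Scpep1 (-0.95) and Atp6ap1, an accessory subunit of the vacuolar proton pump (-0.94).

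For Apaf1 the most alike were the homeobox gene Hoxb1 (r = 0.96), the tetraspan membrane protein gene Lhfpl2 (0.96), the glutamyl-prolyl-tRNA synthetase Eprs (0.95), the progranulin gene Grn (0.94) and the integrin chain Itgb1 (0.94), each over 16 arrays. Mdm2 (-0.93) and Cks2 (-0.93) were the least alike. Hoxb1 had fitted log2 ratios of 1.18 in Erbb2 cells at 10 µM, 0.87 with 5 µM and -0.67 in untransfected cells, and Lhfpl2 had 0.99, 0.90 and -1.09. Over the 12 Erbb2 arrays r was 0.47 for Hoxb1, 0.46 for Lhfpl2 and 0.72 for Itgb1.

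For Cdkn1a the most alike were the tubulin cofactor Tbca (r = 0.92), the histone gene H2aj (0.90), Trpc2, a channel gene (0.83), the T cell adaptor Lat (0.82, 13 arrays) and the lipid transfer gene Osbpl5 (0.80). Their fitted group values were far smaller than that of Cdkn1a, with -0.10, -0.14, 0.12, -0.01 and 0.26 in Erbb2 cells at 10 µM. All 5 lay above 0 on array 8 of that group, from 0.44 to 1.75, where Cdkn1a had its highest value. The most alike, Tbca, had -0.26, -0.73, -0.50 and -0.65 on arrays 1 to 4 of that group, with the treated RNA in Cy5. On arrays 5 to 8, with it in Cy3, Tbca had 0.03, 0.72, 0.15 and 0.44. The other genes followed this split by dye in part. Whether the likeness to Cdkn1a follows the dye or the treatment was not tested. Nfkbid (-0.87) and the tRNA-modifying gene Dus2 (-0.86) were the least alike. The ranking rests on the sign change. With the values as deposited, r was 0.95 for Egr1, 0.76 for Slc15a5, 0.79 for Ttll10, 0.91 for Cks2 and 0.77 for Nfkbia with Mdm2. With Apaf1 it was 0.97 for Hoxb1, 0.96 for Lhfpl2, 0.53 for Eprs, 0.88 for Grn, 0.86 for Itgb1 and -0.67 for Mdm2. With Cdkn1a it was 0.84 for Tbca, 0.80 for H2aj, 0.55 for Trpc2, 0.64 for Lat and 0.61 for Osbpl5. The best r for any member was found among 7600 to 7831 genes, and points within a group may come from shared cultures.

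**Figure D4:**
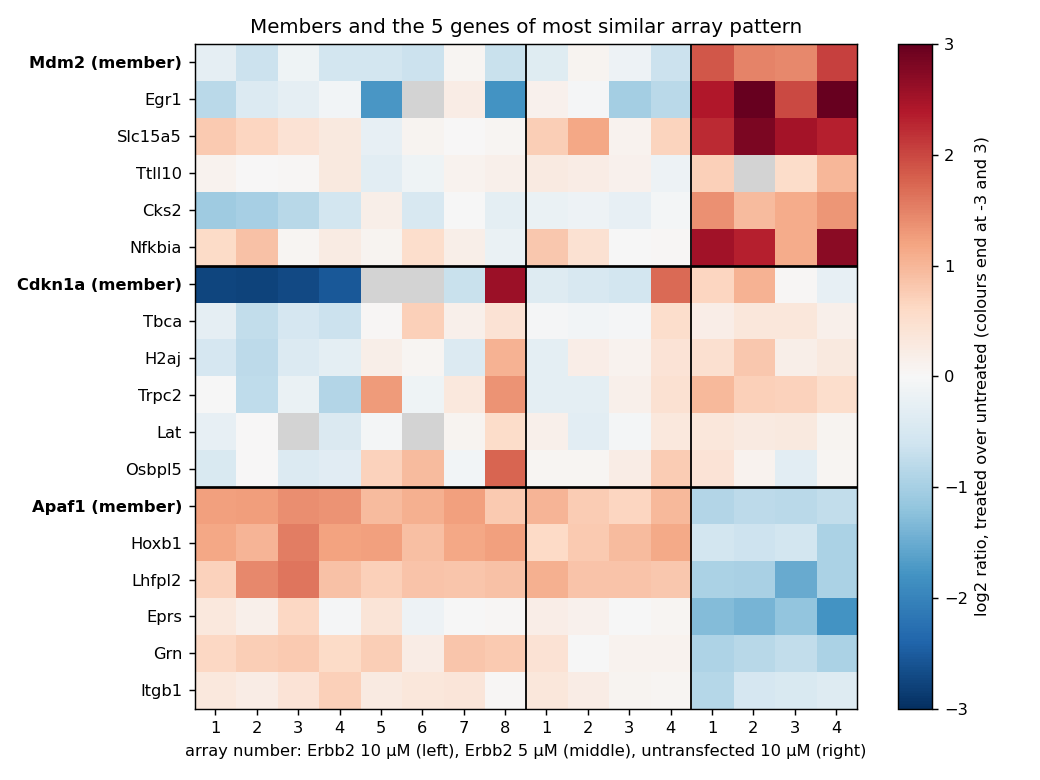
Log2 ratio of treated over untreated cells (colour, ending at -3 and 3, grey for no value) of each member and its 5 most alike genes (rows) on the arrays (columns). The rows of Mdm2 and Apaf1 change between the lines, at the right-hand vertical line, and those of Cdkn1a change within Erbb2 cells at 10 µM. There arrays 1 to 4 have the treated RNA in Cy5 and arrays 5 to 8 have it in Cy3.

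The other genes of the p53 pathway were taken from 6 lists, 156 genes beside the 3 members, of which 111 were on the array and 83 had enough values to be tested. They were tested with limma in 1 fit over all 12420 features, with p-values adjusted by Benjamini-Hochberg over all of them and a threshold of 0.05. In Erbb2 cells at 10 µM, 4 of the 83 passed as lower and 0 as higher, against 0.862% lower, 0.403% higher and 1.26% in either direction among all features. At 5 µM 0 passed with limma, against 0.209% of all features, 0.0322% lower and 0.177% higher. In untransfected cells 5 passed as lower and 1 as higher, against 2.13% and 0.596% of all features and 2.73% in either direction. An unadjusted p under 0.05 was reached by 10 of the 83 genes (12%) in Erbb2 cells at 10 µM, against 10.8% of all features. The count was 10 (12%) with 5 µM, against 6.33% of all features, and 18 (21.7%) in untransfected cells, against 11.5%. The median log2 ratio of the 83 genes was 0.07 in Erbb2 cells at 10 µM, 0.01 with 5 µM and 0.06 in untransfected cells, against 0.00, -0.02 and 0.03 for all features.

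**Figure D5:**
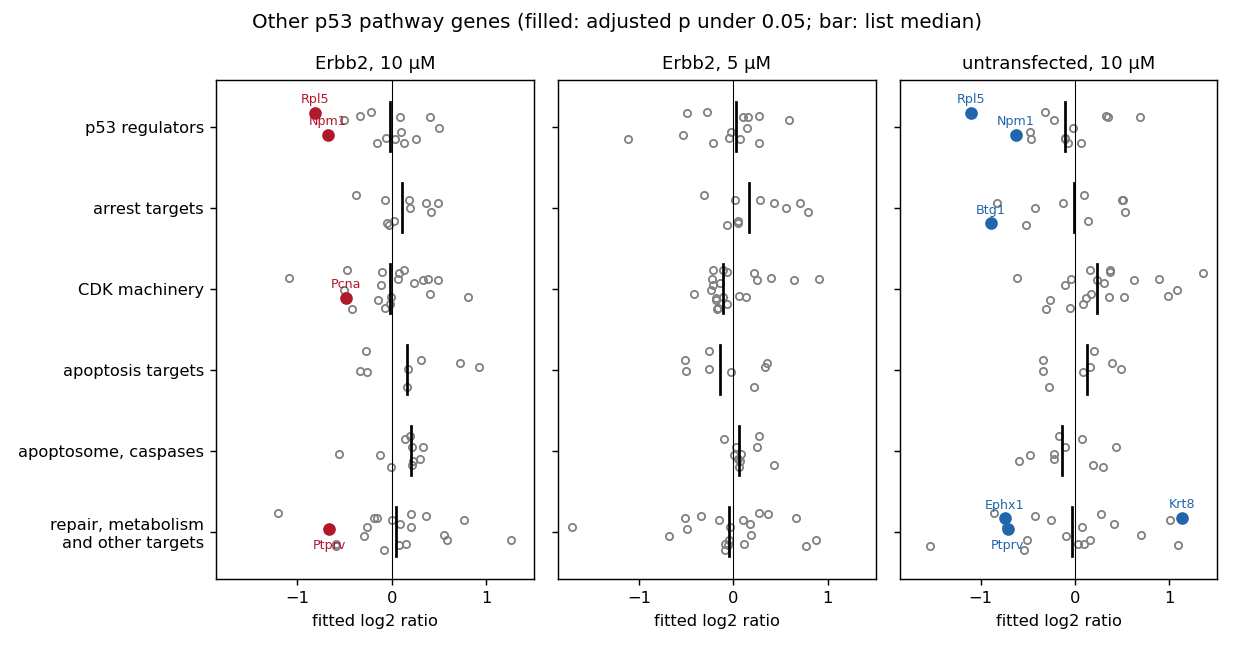
Fitted log2 ratio (horizontal axis, treated over untreated) of the 83 other p53 pathway genes by list (rows) in the 3 groups (panels), with vertical bars for list medians and filled, named points for genes with an adjusted p under 0.05 from limma. The named genes are 4 in Erbb2 cells at 10 µM, 0 with 5 µM and 6 in untransfected cells, all below 0 except Krt8.

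Among 14 tested regulators of p53, Rpl5 and Npm1 fell in Erbb2 cells at 10 µM and in untransfected cells. Both encode proteins that bind Mdm2 and hold it off p53, the ribosomal protein L5 and the nucleolar protein nucleophosmin. Rpl5 had a lowest value of -1.26, a median of -0.79 and a highest of -0.43 over the Erbb2 arrays at 10 µM. In untransfected cells it ran from -1.18 to -0.95. Its fitted log2 ratio was -0.81 ± 0.10 (SE, n = 8) in Erbb2 cells at 10 µM, -0.49 ± 0.15 (n = 4) at 5 µM and -1.10 ± 0.15 (n = 4) in untransfected cells, with adjusted p from limma of 0.00092, 0.359 and 0.000658.

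Npm1 had a lowest value of -1.01, a median of -0.65 and a highest of -0.37 over the Erbb2 arrays at 10 µM, and ran from -0.70 to -0.55 in untransfected cells. Its fitted log2 ratios were -0.68 ± 0.10, -0.53 ± 0.14 and -0.63 ± 0.14, with adjusted p from limma of 0.00261, 0.258 and 0.0251. Every array of both genes lay below 0, at 5 µM too. Without any 1 of the 4 untransfected arrays, the adjusted p of Npm1 there was 0.0792 to 0.115. Rpl11, another ribosomal partner of Mdm2, had 0.03 ± 0.09 in Erbb2 cells at 10 µM and -0.47 ± 0.13 in untransfected cells and did not pass, and was picked for mention after its values were seen. Mdm4, the relative of Mdm2 that masks the activation domain of p53, had 0.51 ± 0.42, 0.14 ± 0.60 and -0.02 ± 0.60. The phosphatase Ppm1d, a p53 target that dampens p53 signalling, had 0.40 ± 0.22, 0.16 ± 0.32 and 0.69 ± 0.32, and neither passed. Trp53, the p53 gene, had no probe under that symbol.

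Of 10 tested arrest targets, 1 passed. Btg1, an antiproliferative gene, fell in untransfected cells, where its arrays ran from -1.20 to -0.59. Its fitted log2 ratio was -0.05 ± 0.13 in Erbb2 cells at 10 µM, 0.04 ± 0.18 in those at 5 µM and -0.89 ± 0.18 in untransfected cells (SE), the last with an adjusted p of 0.0141 from limma. Without untransfected array 1, 2 or 4 that p was 0.0559, 0.105 or 0.0744. Its relative Btg2, also a p53 target, had 0.42 ± 0.20, 0.79 ± 0.28 and 0.53 ± 0.28 and did not pass. Ccng1, which encodes cyclin G1, had 0.19 ± 0.18, 0.28 ± 0.25 and 0.50 ± 0.25, and its 4 untransfected arrays lay between 0.41 and 0.59. Zmat3, an RNA-binding p53 target, had 0.19 ± 0.19, 0.56 ± 0.23 and -0.42 ± 0.23. The probes of Gadd45a had too few values to be tested.

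Among 21 tested genes of the cell cycle machinery on which p21 acts, Pcna passed. It encodes the replication clamp that p21 binds, and it fell in Erbb2 cells at 10 µM. Pcna had a lowest value of -0.60, a median of -0.50 and a highest of -0.35 there, with a fitted log2 ratio of -0.48 ± 0.09 (SE, n = 8) and an adjusted p of 0.0153 from limma. Without array 1 or 4 of that group the adjusted p was 0.0562 or 0.0522, and without the 3 arrays of widest spread 0.12. At 5 µM Pcna had -0.18 ± 0.13 and in untransfected cells 0.11 ± 0.13, and it did not pass. The kinase genes Cdk2 (0.08 ± 0.34 in Erbb2 cells at 10 µM and 1.36 ± 0.48 in untransfected cells) and Cdk4 (-0.11 ± 0.20 and -0.10 ± 0.28) and the cyclin gene Ccne1 (0.24 ± 0.21 and 0.31 ± 0.29) did not pass. The median of the list was -0.02 in Erbb2 cells at 10 µM, -0.11 with 5 µM and 0.23 in untransfected cells. For all features the medians were 0.00, -0.02 and 0.03. No gene of the list passed in untransfected cells with limma.

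None of 8 tested apoptosis targets and none of 10 genes of the apoptosome and caspases beside Apaf1 passed with limma in any group. At an unadjusted p under 0.05 there were 1, 0 and 0 apoptosis targets in the 3 groups, Erbb2 at 10 µM first, Erbb2 at 5 µM second and untransfected last, and 0, 0 and 2 genes of the apoptosome list. Over all features that p was reached by 10.8%, 6.33% and 11.5%. Casp9, the caspase that Apaf1 activates, had 0.33 ± 0.26, 0.03 ± 0.42 and 0.43 ± 0.36. Diablo, which relieves caspases of their inhibitors, had 0.30 ± 0.23, 0.05 ± 0.32 and -0.22 ± 0.32. The death receptor Fas had 0.73 ± 0.71 in Erbb2 cells at 10 µM, where its arrays ran from -4.06 to 4.05. The membrane protein gene Perp had 0.93 ± 0.47 there, and 7 of its 8 arrays lay above 0. The medians of the 2 lists were 0.17 and 0.21 in Erbb2 cells at 10 µM, and 0.12 and -0.13 in untransfected cells. The partners of Apaf1 thus had no call to set beside its values.

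Of 20 tested targets of repair, metabolism and other functions, Ptprv passed as lower in Erbb2 cells at 10 µM and in untransfected cells. Ptprv, a receptor-type phosphatase gene known in mouse as a p53 target in cell cycle arrest, had fitted log2 ratios of -0.66 ± 0.11, -0.49 ± 0.15 and -0.71 ± 0.15 and adjusted p from limma of 0.00475, 0.414 and 0.0179. All 16 arrays lay below 0. Ephx1, an epoxide hydrolase, fell in untransfected cells (-0.74 ± 0.17, adjusted p = 0.0312 from limma), and the keratin gene Krt8 rose there (1.13 ± 0.27, adjusted p = 0.0359). Without any 1 of the 4 untransfected arrays the adjusted p from limma was 0.0668 to 0.146 for Ephx1 and 0.0775 to 0.181 for Krt8, and without array 1 or 2 that of Ptprv there was 0.0867 or 0.121. For Krt8 it was also 0.0545 or 0.0542 without array 1 or 2 of Erbb2 cells at 10 µM, and 0.0527 without array 3 of those at 5 µM. Neither Ephx1 nor Krt8 is a repair gene. The nucleotide excision repair gene Xpc (0.59 ± 0.22 in Erbb2 cells at 10 µM and 0.16 ± 0.29 in untransfected cells), the sestrin gene Sesn1 (0.21 ± 0.52 and -0.73 ± 0.63) and the ribonucleotide reductase subunit gene Rrm2b (-1.21 ± 0.80 and -0.85 ± 0.95) did not pass.

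A further 2 contrasts set the groups against each other. Between 10 µM and 5 µM in Erbb2 cells 0 of the 83 pathway genes passed with limma, against 0% of all features, and 2 (2.41%) had an unadjusted p under 0.05, against 4.33% of all features. Between Erbb2 and untransfected cells at 10 µM 0 passed as well, against 0.813% of all features, 0.628% higher and 0.185% lower, and 11 (13.3%) had an unadjusted p under 0.05, against 9.72% of all features. A call in 1 line and not in the other, as for Btg1 and Pcna, is therefore not shown to differ between the lines. The calls in untransfected cells, other than that of Rpl5, depended on single arrays. Without any 1 of its 4 arrays, between 1 and 3 of the 83 genes passed there in place of 6. Under the reading with the treated RNA in the other dye, the same genes would have the opposite sign in untransfected cells.

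Fibroblast markers had medians of 0.15 in Erbb2 cells at both doses and -0.42 in untransfected cells over 10 tested genes, of which 0, 0 and 3 passed as lower. In the contrast of Erbb2 with untransfected cells at 10 µM, 1 of the 10 passed as higher. The 4 tested blood and immune markers had medians of -0.05, -0.02 and 0.23, of which 0, 0 and 1 passed as lower. Over all features 0.862%, 0.0322% and 2.13% passed as lower in the 3 groups, and 0.628% as higher in the contrast. These markers stood on lists of 14 and 12 genes. The part of this shift in the values of Mdm2 and Apaf1 in untransfected cells was not tested.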

How the data were processed

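RNA of treated and untreated cells was measured on 2-colour arrays, and the deposited values are log ratios per probe, read here as log2. Their base, numerator, background correction and normalization were not given by the labels or headers, and are not known here. Each array was centred near 0, with medians from -0.03 to 0.05 over its ratios. Between 72 and 167 cells per array held 1 identical value between 15.4 and 16.6, above every other ratio (7.94 at most). These 1755 of 325680 cells were taken for placeholders and left out, beside 38737 empty cells. Signal over background is unknown. No column was left unused (0).

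Groups came from the titles, and the dye of the treated RNA from the label of channel 1. Probes with values on at least 3 of 4 and 6 of 8 arrays, and in both dye arrangements, were kept (14813 of 20355) and averaged by gene symbol, which left 12420 features. The platform annotation supplied the symbols, of which 13994 of 14030 were found in RefSeq through their Entrez Gene ID and 0 changed.

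limma 3.58.1 in R 4.3.3, with files read by data.table at version 1.17.8, fitted all 16 arrays with a coefficient per group and a dye term, followed by eBayes. Tests were two-sided, and p-values adjusted over all features. The fit was tested on simulated data. Member means are plain means ± SD over arrays. Pathway genes were named if they passed (up to 4 per list and comparison) or stood on a short list named whatever their values. For each member, the 5 genes of highest and 2 of lowest r over at least 12 shared arrays were named. The members, lists and naming rules were chosen with earlier results of these data known. The alternatives are in the closing section.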

Additional observations from a re-analysis of the deposited data

Results flagged for a closer look

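Apaf1 had every Erbb2 array at 10 µM above 0 and every untransfected array below it, a mean difference of 1.96 on the log2 scale. This was not tested because the gene was chosen on these values. Array values of these groups did not overlap for 2.99% of all features, and nothing is read from that share. Were the treated RNA of the untransfected arrays in the other dye, Apaf1 would have 0.80 there, above 0 as in Erbb2 cells.

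Of 76 sets of array values (the 3 members, each Mdm2 probe and the named pathway genes in each group), 8 held an array far from the others by Dixon's criterion, which chance gives in about 1 of 20 sets. Cdkn1a at 5 µM had 1.69 on array 4, against -0.54 to -0.38 on the other 3. In Erbb2 cells at 10 µM, Mdm4 had 4.36 on array 5 (others -0.87 to 0.63), Ptprv had -1.22 on array 8 (others -0.65 to -0.45) and Sesn1 had 3.50 on array 7 (others -1.39 to 0.32). At 5 µM, Ppm1d had 0.72 on array 3 (others -0.06 to 0.00) and Xpc had -0.44 on array 3 (others 0.06 to 0.09). In untransfected cells, Casp9 had 1.37 on array 1 (others -0.02 to 0.20) and Ppm1d had 1.75 on array 4 (others 0.23 to 0.48).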

How the results depend on the processing

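With no array turned for its dye, the mean log2 ratio of Apaf1 was 0.15 in Erbb2 cells at 10 µM, 0.041 with 5 µM and -0.026 in untransfected cells, that of Mdm2 0.0228, 0.13 and -0.0354, and that of Cdkn1a -0.50 at 5 µM. The features past the threshold were then 2, 0 and 4, with 0 between the lines, and the pathway genes 0 in Erbb2 cells at 10 µM and 0 in untransfected cells. Npm1 had 0.0159 in Erbb2 cells at 10 µM and 0.0297 in untransfected cells, Ptprv 0.0764 in the transfected cells at that dose and Ephx1 0.26 in untransfected cells. With the treated RNA of the untransfected arrays in the other dye, that group had 0.80 for Apaf1, -0.37 for Cdkn1a, -1.70 for Mdm2, 0.89 for Btg1, 0.74 for Ephx1, -1.13 for Krt8, 0.63 for Npm1, 0.71 for Ptprv and 1.10 for Rpl5. Between the lines 351 features and 6 pathway genes then passed, in place of 101 and 0.

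With a value required on every array, 247 features passed in Erbb2 cells at 10 µM, 73 with 5 µM and 189 between the lines, with 1 pathway gene at 5 µM, 12 in untransfected cells and 5 between the lines. With at least 2 arrays per group, 98 and 4 features passed in the Erbb2 groups and 3 pathway genes in untransfected cells. Each group on its own arrays gave 22, 0 and 0 features and 0 pathway genes in Erbb2 cells at 10 µM and in untransfected cells. Scaling the arrays to 1 spread gave 45 features at 5 µM and 1 pathway gene between the lines, and single probes gave 16 features at 5 µM. Without arrays 3, 5 and 6 of Erbb2 cells at 10 µM, 57 features passed there, with 1 pathway gene between the lines.

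Leaving out 1 array at a time gave means from 1.12 to 1.21, 0.79 to 0.91 and -0.82 to -0.78 for Apaf1, from -0.50 to -0.39, -0.39 to -0.14 and 1.59 to 1.79 for Mdm2, and from -2.29 to -1.22, -0.47 to 0.28 and 0.14 to 0.57 for Cdkn1a. Cdkn1a at 5 µM was below 0 without array 4 (-0.47). The features past the threshold ran from 103 to 145, 5 to 24 and 213 to 372 in the 3 groups and 60 to 105 between the lines. The pathway genes ran from 3 to 4, 0 to 0 and 1 to 7, and 0 to 1 between the lines. The lower ends came without array 1 or 4 in Erbb2 cells at 10 µM (103), and without array 2 (213) or array 1 (222) in untransfected cells. Rpl5 kept its call in both groups in these fits, as did Npm1 and Ptprv in Erbb2 cells at 10 µM, whereas Ephx1, Krt8 and Npm1 in untransfected cells lost it without any 1 of that group's 4 arrays and Ptprv without its array 1 or 2. Krt8 also lost it without array 1 or 2 of Erbb2 cells at 10 µM, without array 3 at 5 µM, and with no dye term (adjusted p = 0.0513 from limma). With at least 2 arrays per group Ephx1, Krt8 and Npm1 in untransfected cells had adjusted p of 0.0586, 0.0564 and 0.0565. At 5 µM 5 or 6 features passed without any 1 of its arrays, and without array 1, 2, 4, 7 or 8 of Erbb2 cells at 10 µM 6, 5, 13, 9 and 15. Without untransfected array 1, 2, 3 or 4 there were 7, 8, 10 and 15 at 5 µM, and between the lines 67, 63 and 60 without array 1, 2 or 4.

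Deviations of arrays with the same replicate number in different groups correlated between -0.03 and 0.04. Same-dye arrays of 1 group had a mean r of only 0.026 to 0.109, so these values cannot tell whether the numbers paired the arrays. With the number as a replicate block, 156, 25 and 335 features passed in the groups and 0 between the lines, where the block left 4 arrays a line. It changed no other count by over 1.5 times. Causes of these changes were not tested. The files hold no signal over background, so dim probes could not be set apart.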

Other observations

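Some further pathway genes did not pass the threshold but had an unadjusted p under 0.05, and they were picked with their values known. The mitotic kinase gene Cdk1 had a fitted log2 ratio of -0.48 ± 0.20 (SE) in Erbb2 cells at 10 µM and 0.99 ± 0.29 in untransfected cells, with an unadjusted p under 0.05 in both. The cyclin gene Ccna2 had 0.39 ± 0.18 and 0.89 ± 0.26, below that p in untransfected cells only. The survival gene Mcl1 had -0.48 ± 0.15 in untransfected cells, and Aifm1, which encodes a mitochondrial flavoprotein released in cell death, had -0.59 ± 0.17 there. In Erbb2 cells at 10 µM the mitochondrial superoxide dismutase gene Sod2 had 0.77 ± 0.26.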
